A study of Rattus norvegicus with 10 samples.

Results

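The genes described here encode the early part of the complement system in the testis of adult male Wistar rats. They are the chains of C1q (C1qa, C1qb, C1qc), the C1 proteases C1r and C1s, the components C2 and C3, and the gene pair C4a and C4b. Members were taken from the deposited table wherever the gene field, split at commas, held 1 of these 9 symbols, which gave 9 loci of the 94827 in the table. Where a symbol had several loci, the main one was that with the highest mean of both columns, and 8 main loci stood for the 9 symbols because C4a and C4b share a merged locus. They form a group of genes of known function, selected on the group values of this same table: their large BDE-47 minus vehicle differences were known when they were chosen. Those differences are therefore a description, with no test.

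BDE-47 is a brominated diphenyl ether, a flame retardant that persists in tissue. Pregnant Wistar females, 7 per group by the labels, received either tocopherol-stripped corn oil alone or the same oil with BDE-47 as a daily dose of 0.2 mg per kg, starting on pregnancy day 8 and ending on postpartum day 21. Poly(A) RNA from the testis of male offspring was sequenced at postnatal day 120, with 5 libraries from vehicle offspring and 5 from BDE-47 offspring. The table holds 1 value per group for each locus, in FPKM, that is fragments per kilobase of transcript after scaling for library size, so no spread between animals is known, nothing was tested, and each difference is a difference between 2 group values. Litters are not labelled, and library depth cannot be read from the table. Every direction depends on the names of the columns: libraries treated with BDE-47 carry C in their titles and vehicle libraries X, and how libraries were assigned to columns cannot be seen.

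Complement is a cascade of plasma and tissue proteins that marks cells and microbes for removal. In the classical pathway, C1q binds antibody complexes, dying cells or altered surfaces, C1r then cleaves C1s, C1s cleaves C4 and C2, and the fragments form the enzyme that cleaves C3. The liver makes most plasma complement, whereas C1q comes mainly from macrophages and dendritic cells, and fibroblasts and macrophages make C1r, C1s, C2, C3 and C4 locally. The testis keeps its germ cells behind the barrier formed by Sertoli cells, while resident macrophages lie among the Leydig cells of the interstitium.

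All 8 main loci had a higher value in the BDE-47 column than in the vehicle column, by 12.0-fold to 76.6-fold in FPKM. Their summed level was 30.0 FPKM with vehicle and 526 FPKM with BDE-47. In the vehicle column the members lay between 0.0504 FPKM (C3) and 10.3 FPKM (C1r), and in the BDE-47 column between 1.17 FPKM (C3) and 130 FPKM (C1r). In bulk tissue, fewer cells of a type and less RNA per cell cannot be told apart.

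**Figure D1:**
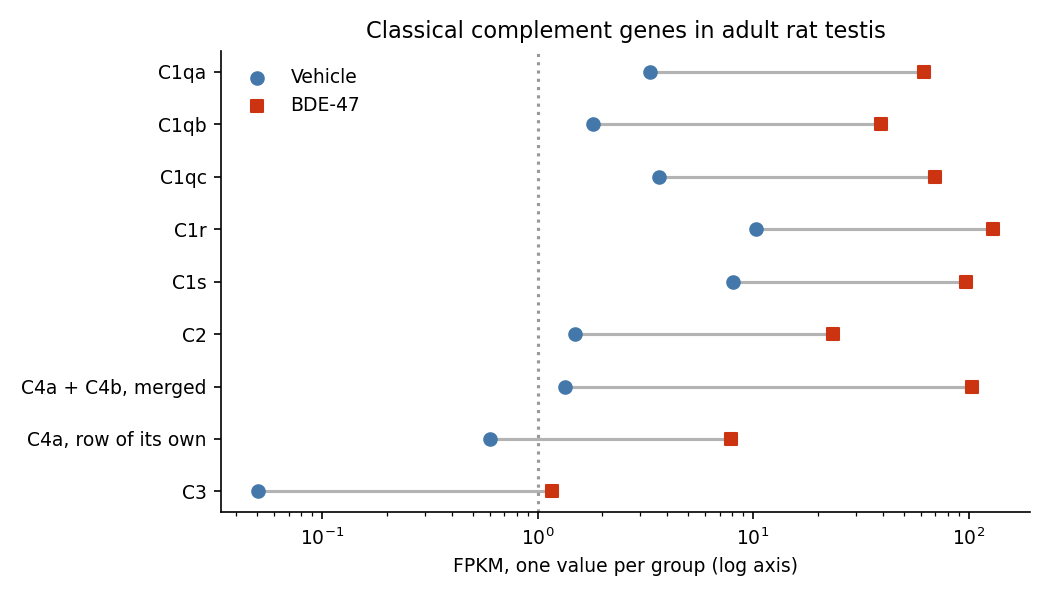
FPKM of the 9 loci that carry a member's name, on a log axis, with 1 point per group: circles for vehicle, squares for BDE-47. The dotted line marks 1 FPKM. Every square lies to the right of its circle, C3 is the lowest main locus in both groups, and the merged C4a and C4b locus has the longest line, from 1.35 to 103 FPKM.

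Against the rest of the table the members stood high. Differences are BDE-47 minus vehicle on the log2(FPKM + 1) scale, which understates those of low genes. Of the 11567 names whose mean reached 1 FPKM, 30.1% were higher with BDE-47 by 2-fold or more and 3.60% were lower by that size, and the median difference was 0.45, with quartiles of -0.20 and 1.17. All 7 main loci that reached this mean were higher by 2-fold or more, and each of these was also at 1 FPKM or more in both columns. Their median difference was 3.85, and they held ranks from 3 to 131 by difference. The members were chosen with these values known, so the count is read against the background only as a description. After median-of-ratios scaling, which removes a shift of 0.52 log2 units, 19.3% of names were past 2-fold upward and 14.5% downward, and after quantile normalization 13.4% and 14.4%.

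**Figure D2:**
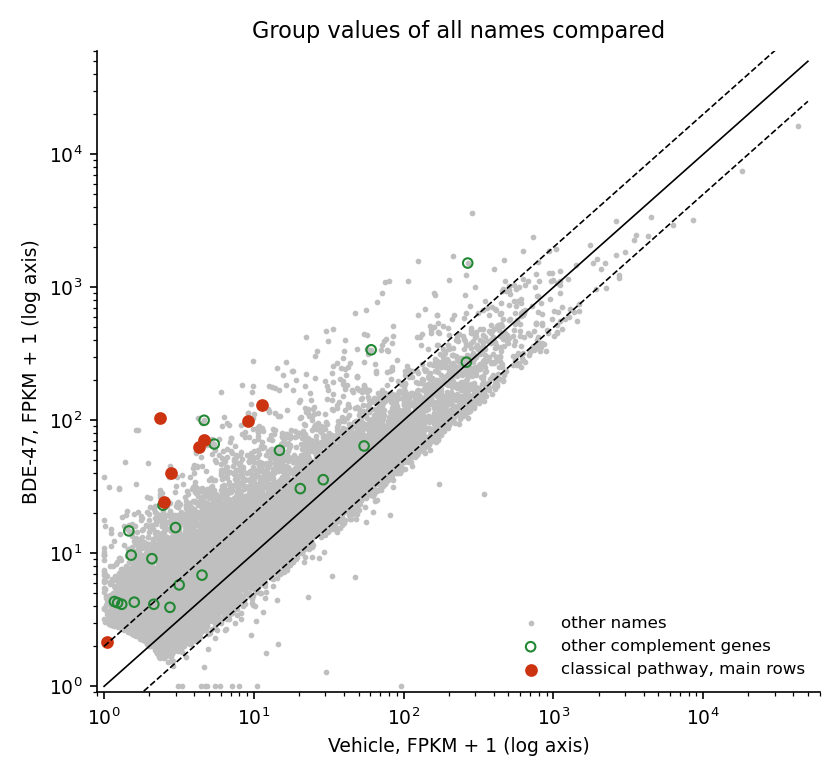
FPKM + 1 in the vehicle column (x) and the BDE-47 column (y) for all names compared, on log axes, 1 point per name. The solid line marks equal values and the dashed lines 2-fold. Members (filled) lie above the upper dashed line, C3 just above it near the origin, and 14 of 22 other complement loci (open circles) lie above it too.

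C1q, the recognition part, is built from the products of 3 genes that lie side by side. C1qa was at 3.32 FPKM with vehicle and 61.8 with BDE-47. C1qb was at 1.80 and 39.4 FPKM. C1qc was at 3.66 and 69.6 FPKM. The chains thus kept the same order of level in both columns, with C1qc highest and C1qb lowest. The level of C1qa relative to C1qc was 0.908 with vehicle and 0.889 with BDE-47, while C1qa relative to C1qb went from 1.84 to 1.57. On the log2(FPKM + 1) scale the difference was 3.86 for C1qa, 3.85 for C1qb and 3.92 for C1qc. The 3 chains therefore had nearly equal differences.

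In build rn5 the C1q genes take up 17906 bases of chromosome 5. C1qb is at chr5:159008695-159014492, C1qc at chr5:159017523-159020850 and C1qa at chr5:159022736-159026600. An unnamed locus between C1qc and C1qa was at 0.0467 and 0.620 FPKM, so it had the same direction at a far lower level. Promoter sequence was at hand for both outer genes of the cluster. It is shown because C1qa and C1qb are neighbours with nearly the same difference. The bases before the annotated start of each gene are given 5′ to 3′ on the strand of the gene, from RefSeq on build GRCr8, at chr5:154419934-154420183 (minus strand) for C1qa and chr5:154407828-154408077 (minus strand) for C1qb. Capitals mark matches to the Ets core GGAAGT, to the PU.1 core GAGGAA (PU.1 is an Ets factor of macrophages) and to the STAT motif TTCNNNGAA, searched on both strands.
C1qa: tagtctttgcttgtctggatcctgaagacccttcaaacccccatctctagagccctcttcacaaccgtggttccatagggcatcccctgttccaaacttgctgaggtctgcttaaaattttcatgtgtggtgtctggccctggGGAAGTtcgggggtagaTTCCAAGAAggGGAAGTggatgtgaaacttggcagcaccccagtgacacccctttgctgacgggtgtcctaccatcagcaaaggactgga
C1qb: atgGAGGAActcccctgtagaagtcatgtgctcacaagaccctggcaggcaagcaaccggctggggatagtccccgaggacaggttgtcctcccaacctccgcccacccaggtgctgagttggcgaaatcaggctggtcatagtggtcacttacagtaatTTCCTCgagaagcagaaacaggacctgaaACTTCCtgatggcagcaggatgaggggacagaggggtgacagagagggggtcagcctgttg

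The Ets core was found in both C1q windows, at 107 and 79 bases before the start of C1qa and, on the other strand, at 61 bases before that of C1qb. It occurs in 19.2% of all 33469 promoter windows of 250 bases in the table. The PU.1 core was found in C1qb at 247 and 90 bases before the start, against 23.3% of all windows with at least 1 match. The STAT motif was found in C1qa at 90 bases before the start, against 7.67% of all windows. None of the matches overlap. The motifs were chosen after the sequences were seen, so the shares do not measure how unusual a match is. Such matches are letters in a window and do not show binding.

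C1r and C1s, the serine proteases carried by C1q, had the highest levels of the single-gene loci. C1r, at chr4:224144350-224156393, was at 10.3 FPKM with vehicle and 130 with BDE-47. C1s, at chr4:224162094-224180108, was at 8.11 and 97.7 FPKM. The differences were 3.54 and 3.44 on the log2(FPKM + 1) scale. The level of C1r relative to C1s was 1.27 and 1.33, so the pair held nearly the same proportion in both columns, as the C1qa and C1qc chains did. Both proteases stood above every C1q chain in both columns.

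Next to C1r lies C1rl, a related protease gene that is no member and was named after its values were seen. It has a locus at 0.363 and 6.50 FPKM and another at 0.140 and 2.50 FPKM with the same bounds. Within the bounds of C1s, unnamed loci had the opposite direction. The table has them at 0.607 and 0.119 FPKM and at 1.07 and 0.774 FPKM. The higher value of C1s in the BDE-47 column was thus not shared by every locus of its interval.

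C4 is the substrate of C1s and gives the surface-bound part of the C3-cleaving enzyme. Rats have a pair of C4 genes, and the table reports them as a merged locus of C4a and C4b at 1.35 FPKM with vehicle and 103 with BDE-47. The difference was 5.47 on the log2(FPKM + 1) scale, the highest of the members and rank 3 among all names compared. The value belongs to neither gene alone, since reads of near-identical copies can be shared. A second locus named C4a alone, with the same bounds, was at 0.599 and 7.89 FPKM, a difference of 2.48. Relative to C1qa, the merged C4 locus was at 0.406 with vehicle and 1.67 with BDE-47, so C4 passed from below to above the C1q chains.

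Both C4 loci carry the bounds of a bundle of 215231 bases, chr20:6381697-6596927 in rn5, which holds 15 named loci and lies in the class III part of the major histocompatibility complex. Of the 13 loci in this bundle that do not name C4, 8 were higher with BDE-47 by 2-fold or more and none was lower by that size, beside 30.1% and 3.60% of the names compared, although the bundle count has no minimum level. After median-of-ratios scaling 5 were higher and 2 lower by that size, beside 19.3% and 14.5% of the names compared. Ager (0.78), Rnf5 (0.85) and Ppt2 (0.94) then lay within 2-fold, and Agpat1 (-1.45) and Fkbpl (-1.35) past it. With the most abundant loci left out, 7 were higher and 2 lower, beside 25.4% and 7.10% of the names compared. Of the loci higher as reported, Ager, Prrt1, Egfl8 and Tnxa-ps1 were under 1 FPKM with vehicle. As reported, the differences ran from -0.94 for Agpat1, a lipid enzyme gene at 116 and 60.1 FPKM, to 2.29 for Prrt1, at 0.633 and 6.96 FPKM. Both C4 loci lay above every other named locus of the bundle, as they did after either of those scalings. The others between these ends were Fkbpl (97.7 and 54.2 FPKM), Atf6b (13.5 and 18.8), Stk19 (3.89 and 6.32), Cyp21a1 (0.105 and 0.420), Rnf5 (9.25 and 24.9), Egfl8 (0.785 and 4.47), Ppt2 (3.81 and 11.6), Pbx2 (2.22 and 8.57), Ager (0.454 and 1.97), Tnxa-ps1 (0.171 and 1.85) and the merged locus of Gpsm3 and Notch4 (1.42 and 5.46). Atf6b had a difference of 0.44 that became -0.05 after median-of-ratios scaling.

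**Figure D3:**
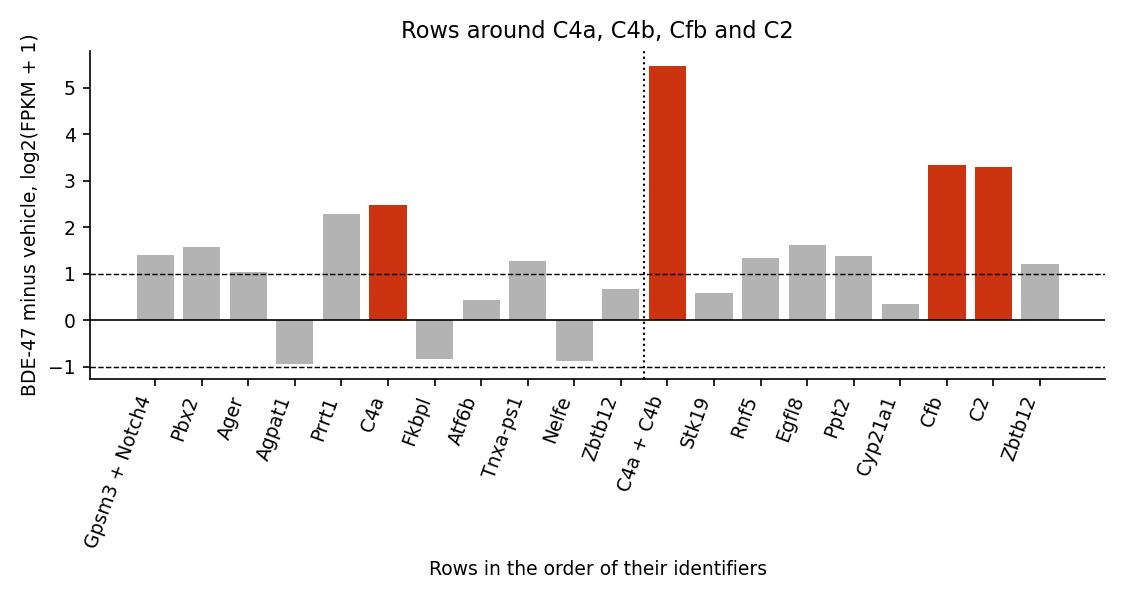
Differences, BDE-47 minus vehicle on the log2(FPKM + 1) scale, of the named loci in the C4 bundle and of those at Cfb and C2, in the order of the table's identifiers, with 1 bar per locus. Dashed lines mark 2-fold, the dotted line separates both runs of identifiers, and coloured bars are C4, Cfb and C2. The merged C4a and C4b bar reaches 5.47, and Agpat1, Fkbpl and Nelfe lie below 0.

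The locus named C4a alone sits among loci of the opposite strand. Identifiers in this stretch, including Cfb and C2, form 2 runs. In the run that holds the merged C4 locus, the genes Stk19, Rnf5, Egfl8, Ppt2 and Cyp21a1 lie on the same strand as C4a and C4b in GRCr8, and 1 other, Zbtb12, on the opposite strand. In the run that holds the locus named C4a alone, all 7 other single-gene loci with a known strand lie on the strand opposite to C4a. The strand setting of the counting is not given in the sources used here, so sense and antisense signal at C4 cannot be told apart.

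The sequences before both C4 genes are shown because the merged value cannot be split between them and their upstream regions are close copies. They are from RefSeq on build GRCr8, plus strand, at chr20:4010107-4010305 for C4a and chr20:4201729-4201978 for C4b, and end at the base before the annotated gene start. Capitals mark the E-box CACGTG, a site type bound by factors such as USF, and the PU.1 core GAGGAA.
C4a: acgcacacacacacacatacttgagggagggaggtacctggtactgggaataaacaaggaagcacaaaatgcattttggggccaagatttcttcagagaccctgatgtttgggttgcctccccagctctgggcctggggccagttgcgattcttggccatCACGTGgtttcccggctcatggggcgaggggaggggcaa
C4b: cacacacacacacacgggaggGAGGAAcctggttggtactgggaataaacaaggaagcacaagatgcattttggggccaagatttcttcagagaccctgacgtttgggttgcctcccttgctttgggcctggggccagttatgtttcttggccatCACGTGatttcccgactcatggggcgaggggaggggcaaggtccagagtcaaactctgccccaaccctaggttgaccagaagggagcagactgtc

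Aligned over 194 columns, the C4a and C4b windows were identical at 175 positions, or 90.2%, with 19 mismatches and no gap. The E-box was in both, 39 bases before the annotated start of C4a and 95 bases before that of C4b. It occurs in 4.66% of all promoter windows of 199 bases, the length used for C4a, and in 5.59% of those of 250 bases. The PU.1 core was found in the C4b window only, at 229 bases before the start, with 23.3% of all windows of 250 bases holding it. These motifs too were chosen after the sequences were seen.

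C2, which supplies the protease part of the C3-cleaving enzyme, was at 1.49 FPKM with vehicle and 23.4 with BDE-47. On the log2(FPKM + 1) scale its difference of 3.29 was the smallest of the 7 main loci that reached a mean of 1 FPKM, with C1s next at 3.44. In FPKM, C2 was 15.7-fold apart, more than C1s (12.0-fold) and C1r (12.6-fold). C2 lies at chr20:6622136-6655702 beside Cfb, the gene of factor B, which has the same role in the alternative pathway. Cfb was at 0.463 and 13.7 FPKM, a difference of 3.33. The neighbours C2 and Cfb thus had nearly the same difference on the log2(FPKM + 1) scale. As a ratio of FPKM, Cfb was further apart than C2, because Cfb was under 1 FPKM with vehicle and the pseudocount lowers its difference more. Other loci within these bounds did not share the size of difference of C2 and Cfb. Nelfe was at 71.0 and 38.3 FPKM, and the loci named Zbtb12 were at 0.354 and 1.15 FPKM and at 0.480 and 2.43 FPKM. An unnamed locus there was at 0.104 and 0.871 FPKM. The level of the merged C4 locus relative to C2 was 0.901 with vehicle and 4.41 with BDE-47.

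C3, the component on which all complement pathways meet, stood apart by its low level. At chr9:8728464-8754412 it was at 0.0504 FPKM with vehicle and 1.17 with BDE-47, 23.3-fold apart. Its mean was 0.612 FPKM, under the minimum of 1, so it entered no count of genes compared. On the log2(FPKM + 1) scale its difference was only 1.05, because neither value is large beside the pseudocount of 1. That value became 0.90 after median-of-ratios scaling and 0.99 when the most abundant loci were left out. The merged C4 locus was at 26.7 times the level of C3 in the vehicle column and 88.0 times in the BDE-47 column. The sequence before C3 is shown as that of the member set apart by its level (RefSeq, GRCr8, chr9:2201340-2201589, minus strand). Capitals mark TTGCGAAAT, a C/EBP-type motif found 104 bases before the start and in 0.0837% of all windows of 250 bases. The motif was chosen after the sequence was seen, so its match was certain and the share does not measure how unusual it is.
C3: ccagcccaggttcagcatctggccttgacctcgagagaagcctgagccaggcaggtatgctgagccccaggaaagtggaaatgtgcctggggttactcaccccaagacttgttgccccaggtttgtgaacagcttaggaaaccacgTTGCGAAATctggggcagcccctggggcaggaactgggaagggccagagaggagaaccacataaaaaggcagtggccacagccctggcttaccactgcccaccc

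None of the 6 member windows at hand held the interferon-stimulated response element (ISRE) or the TATA box TATAAA, which occur in 3.41% and 12.9% of all windows of 250 bases. The window of C1r held a single match, to the PU.1 core at 55 bases before the start. Absence of a match says only that these letters are not in the window.

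The other complement genes were taken by role, from lists drawn up from general knowledge of the system. Of their 42 symbols, 4 (Colec11, C5, C7 and Itgax) were not analysed here and 16 were under the mean of 1 FPKM. Of the 22 loci compared, 14 were higher with BDE-47 by 2-fold or more, none was lower by that size, and the other 8 lay between, for a median of 1.84, against 30.1% of all names compared at least 2-fold higher. Of the 14, 6 were under 1 FPKM with vehicle and so passed the minimum through the BDE-47 column, which made them likely to count as higher. After quantile normalization 11 of the 22 were past 2-fold upward. The loci within 2-fold on the log2(FPKM + 1) scale came from the lectin and terminal pathways, the regulators and the receptors.

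The alternative pathway, which amplifies C3 cleavage, had all 3 of its genes at least 2-fold higher, against 30.1% of all names compared. Beside Cfb these were Cfd, the factor D protease made above all by fat cells (4.44 and 65.3 FPKM), and Cfp, the stabilizer properdin of myeloid cells (1.09 and 8.11 FPKM). Of the lectin pathway, 2 of 4 loci compared were at least 2-fold higher, against the same share. Fcna, a ficolin of macrophages in rodents, was at 1.47 and 22.0 FPKM, and Colec12, a scavenger collectin, at 0.518 and 8.69 FPKM. Cfb and Colec12 were under 1 FPKM with vehicle and passed the minimum through the BDE-47 column. The proteases Masp1 (3.51 and 5.86 FPKM) and Masp2 (1.15 and 3.14 FPKM) had differences of 0.61 and 0.95 on the log2(FPKM + 1) scale at their main loci. Masp2 is past 2-fold without so large a pseudocount, since 3 of the 4 loci were higher by that size with a pseudocount of 0.1 or 0.01 FPKM and with the authors' deposited log2 ratio. The difference of Masp1 changed sign under quantile normalization. Another locus named Masp1 was at 0.00714 and 3.53 FPKM. Mbl2, a mannose-binding lectin of the liver, was listed at 0 in both columns.

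Terminal genes, whose products form the membrane pore, were low in both columns. Of the 5 terminal loci found, only C8g reached a mean of 1 FPKM, at 1.75 and 2.93 FPKM, within 2-fold. Its difference of 0.51 became -0.33 under quantile normalization, so it has no direction that holds across scalings. Among the others, C6 was at 0.633 and 1.16 FPKM and C9 at 0.582 and 0.578 FPKM.

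Secreted regulators split. Of 4 loci compared, 2 were past 2-fold upward and none downward (median 1.69), beside 30.1% and 3.60% of all names compared. Serping1, the inhibitor of C1r and C1s, was at 3.66 FPKM with vehicle and 99.0 with BDE-47, a difference of 4.43 that lay above those of the proteases it blocks. Clu, the clusterin gene that Sertoli cells express strongly, was at 267 and 1520 FPKM. Vtn, vitronectin, was at 2.17 and 4.79 FPKM, a difference of 0.87 on the log2(FPKM + 1) scale. With a pseudocount of 0.1 or 0.01 FPKM, and with the authors' deposited log2 ratio, Vtn was past 2-fold too, which made 3 of 4. The merged locus of C4bpb, a chain of the C4b-binding protein, and Pfkfb2, a glycolytic regulator, was within 2-fold at 19.4 and 29.7 FPKM.

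Of the 4 membrane regulators, which protect host cells, 2 were at least 2-fold higher, beside 30.1% of all names compared. Cd59, the inhibitor of the membrane pore, was at 59.7 and 338 FPKM, and Cr1l, the rodent regulator Crry, at 2.00 and 14.6 FPKM. A merged locus that also carries the name Cr1l was at 1.04 and 1.53 FPKM, within 2-fold. Cd46, which in rodents is found on the acrosome of sperm, was at 28.1 and 34.8 FPKM, and Cd55, the decay-accelerating factor, at 53.4 and 63.1 FPKM. The regulators named Cd46 and Cd55 thus lay within 2-fold, and both had a negative difference after median-of-ratios scaling, at -0.20 and -0.28.

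Among receptors and binding partners, 5 of 6 loci compared were past 2-fold upward (median 1.72), beside 30.1% of all names compared. C3ar1 (0.232 and 3.25 FPKM), C5ar1 (0.173 and 3.34) and C5ar2 (0.590 and 3.29) encode receptors for the anaphylatoxin fragments, and Itgb2 (0.312 and 3.14), an integrin chain of leukocytes, is part of complement receptors on phagocytes. These receptors were under 1 FPKM in the vehicle column, so they passed the minimum only through the BDE-47 column. C1qbp, a mitochondrial protein that binds the C1q heads, was at 13.8 and 58.5 FPKM.

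Proteins that share the globular head of C1q without belonging to complement were set beside C1q. Of 10 loci compared, 7 were past 2-fold upward and none downward (median 1.72), beside 30.1% and 3.60% of all names compared. However, 4 of the 7 were under 1 FPKM with vehicle and passed the minimum through the BDE-47 column. Without a minimum the count was 7 of 17, with a median of 0.46. The highest difference on the log2(FPKM + 1) scale was 3.13 for C1qtnf6 (0.664 and 13.5 FPKM), below that of every C1q chain. This order depends on the pseudocount, since C1qtnf6 was under 1 FPKM with vehicle. As a ratio of FPKM, C1qtnf6 was not below C1qa (18.6-fold) or C1qc (19.0-fold). C1qtnf1 (2.83 and 16.2 FPKM), C1qtnf5 (0.423 and 4.79), C1qtnf2 (0.607 and 5.35), C1qtnf7 (0.607 and 5.10), Emilin1 (1.41 and 5.90) and Adipoq (6.32 and 16.4) were also past 2-fold. C1qtnf3 (2.14 and 2.45 FPKM), C1qtnf4 (2.55 and 1.56) and the merged locus of C1ql3 and Rsu1 (12.4 and 23.4) lay within it, with a sign for C1qtnf3 that turned under each of the 3 scalings. After quantile normalization 5 were higher and 1 lower by 2-fold. Emilin1 (0.67) and Adipoq (0.58) then lay within it, and C1qtnf4 was at -1.33. Another locus named Adipoq had the opposite direction, at 2.69 and 2.28 FPKM. With all loci of a symbol summed, 6 of 10 were past 2-fold upward.

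**Figure D4:**
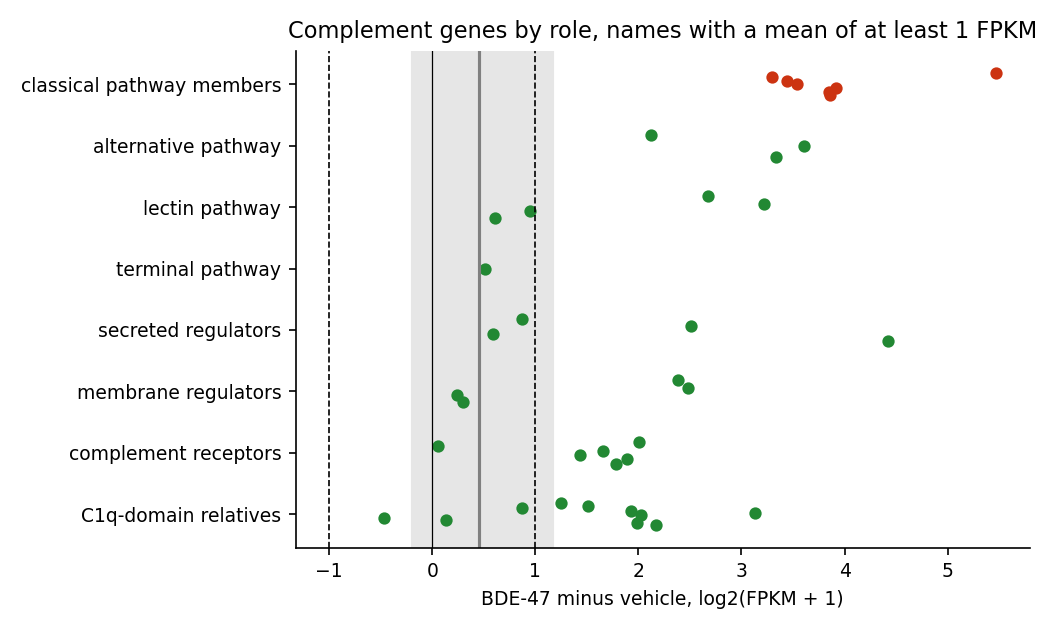
Differences, BDE-47 minus vehicle on the log2(FPKM + 1) scale, of complement genes by role, 1 point per locus with a mean of at least 1 FPKM, so C3 is not shown. The grey band spans the quartiles of all names compared (-0.20 to 1.17), the grey line is their median (0.45), and dashed lines mark 2-fold. The 7 classical pathway points lie between 3.29 and 5.47, the terminal pathway has 1 point inside the band, and the other lists spread from the band outward.

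Most markers of macrophages and fibroblasts, cells that could supply complement RNA, were at least 2-fold higher with BDE-47. Of 13 macrophage loci compared, 11 were past 2-fold upward (median 2.47), beside 30.1% of all names compared. After quantile normalization 9 were, beside 13.4% of all names. Of the 11, 4 were under 1 FPKM with vehicle and passed the minimum through the BDE-47 column, which made them likely to count as higher. The list summed to 126 FPKM with vehicle and 531 with BDE-47. Lyz2 was at 7.31 and 184 FPKM and Ctss at 3.89 and 64.4. Marco was near 0 in both columns, at 0.0266 and 0.0130 FPKM. Of 6 fibroblast loci compared, all 6 were at least 2-fold higher, with sums of 13.3 and 162 FPKM. Of these 6, 1 passed the minimum through the BDE-47 column. The list was led by Dcn (5.13 and 89.9), Col3a1 (1.74 and 22.8) and Pdgfra (2.13 and 21.1), while Col1a2 was listed at 0 in both columns. The part of macrophages and fibroblasts in the complement values was not tested.

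Hepatocyte markers were set beside the complement values, because liver makes plasma complement and an extraction label speaks of liver. None of the 4 hepatocyte loci compared was past 2-fold, beside 30.1% of all names compared higher and 3.60% lower by that size. The list summed to 38.8 FPKM with vehicle and 38.0 with BDE-47. Alb, the albumin gene and the defining marker of hepatocytes, was at 0.920 and 0.633 FPKM, and Apoa2 was listed at 0 in both. Ttr, the transthyretin gene, also under the minimum, had the opposite direction at 0.142 and 1.67 FPKM, a difference of 1.23. Apoh was at 12.9 and 14.3 FPKM, Fgb at 5.24 and 6.45, and the merged locus of Fgg and Lrat at 15.9 and 11.8. Apoh and that merged locus are the largest parts of the hepatocyte sums. The part of liver in the complement values was not tested. The germ cell list, headed by Prm1 (43238 and 16271 FPKM), Tnp1 (18179 and 7434) and Tnp2 (8599 and 3191), marked both columns as testis. That list summed to 77732 FPKM and 31817 FPKM, and these sums rest on the genes of late spermatids. At least 2-fold lower were 4 of 10 loci, and none was higher by that size, beside 3.60% and 30.1% of all names compared. Sycp3, a gene of meiotic chromosomes, was at 357 and 699 FPKM (difference 0.97), and Ddx4, the germ cell helicase gene, at 154 and 208 FPKM (0.43). The count lower was 7 of 10 after median-of-ratios scaling, beside 14.5% of all names, and 6 with the most abundant loci left out, beside 7.10%. After quantile normalization it was 1, Prm2, beside 14.4% of all names. In that setting Prm1 and Tnp1 keep their top ranks and so have a difference of 0.

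The other somatic lists differed in how many of their loci were higher with BDE-47, and their part in the complement values was not tested. At least 2-fold higher were 6 of 6 Leydig cell loci (sums of 127 and 1375 FPKM) and 7 of 8 Sertoli cell loci (238 and 1239). So were 4 of 6 fat cell loci (101 and 221), 2 of 4 endothelial loci (91.5 and 146) and 1 of 5 peritubular loci (45.5 and 73.2). The share over all names compared was 30.1%. Of the loci higher, 2 of the 4 fat cell and 1 of the 2 endothelial loci were under 1 FPKM with vehicle and passed the minimum through the BDE-47 column. The endothelial sums are mostly a merged locus that holds Tek (88.0 and 133 FPKM), and the fat cell sums hold Lipe, which had the opposite direction (85.6 and 46.2). After quantile normalization the counts were 6 of 6 for Leydig, 5 of 8 for Sertoli, 2 of 6 for fat cell, 0 of 4 for endothelial and 1 of 5 for peritubular loci. The share over all names was then 13.4%. Of these lists, Cfd and Adipoq stand both among fat cell and among complement or C1q-domain genes, and Clu is also a Sertoli cell product. Of 12 interferon-response loci, 10 were past 2-fold upward and 1 downward (median 2.97), with sums of 38.5 and 438 FPKM. Over all names compared, 30.1% were past 2-fold upward and 3.60% downward. Of the 10, 3 were under 1 FPKM with vehicle and passed the minimum through the BDE-47 column. Ifi27 (14.6 and 217), Psmb9 (4.50 and 58.9) and Psmb8 stood at the top of this list. The locus that was lower carries the name Irf8, which has 4 loci in the table.

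With only 2 values per gene, a pattern across samples cannot be matched. The single-gene names nearest to the mean of the C1q chains, by distance in the plane of both columns on the log2(FPKM + 1) scale, were Tyrobp at 3.14 and 55.7 FPKM (distance 0.11), Ifitm1 at 3.12 and 58.1 (0.12) and Psmb8 at 3.43 and 51.6 (0.23). Tyrobp encodes an adaptor of myeloid receptors, Ifitm1 an interferon-induced membrane protein and Psmb8 a subunit of the immunoproteasome.

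The member differences were recomputed under 10 other settings. Those of the C1q chains ran from 3.23 to 4.45, those of C1r and C1s from 2.95 to 3.67, and those of C2 from 2.61 to 3.98. The C4 value was the least stable of those past the minimum, from 2.48 when merged loci were left out, which leaves the locus named C4a alone, to 6.25 with the authors' deposited log2 ratio. That of C3 ran from 0.90 to 4.54, since it depends on the pseudocount.

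**Figure D5:**
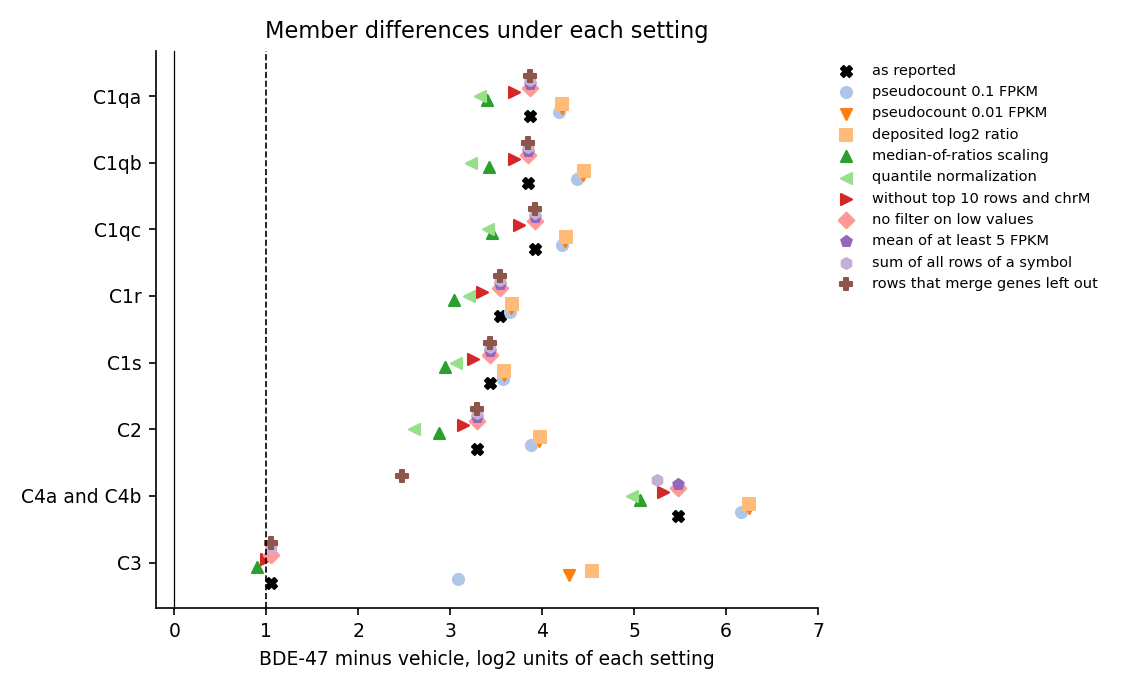
Differences of the 8 main loci (rows) under the reported setting and 10 alternatives (symbols), in the log2 units of each setting. The dashed line marks 2-fold. All symbols of the C1q chains, C1r, C1s, C2 and C4 lie to the right of it, and those of C3 run from 0.90 to 4.54.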

How the data were processed

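Adult rat testis was measured by stranded poly(A) RNA sequencing. TopHat2, Cuffdiff 2.1.1 and the genome build rn5 are named in the submitters' processing notes. The gene annotation, the strand setting and the handling of multiply mapped reads are not stated there, in the labels or in the file. The authors deposited 1 log2 FPKM value per group and locus and a log2 ratio, which equals the difference of both columns within 0.01. The lowest log2 value the authors deposited, -10, was taken as a listed 0, which can be a failed estimate. Library depth and the spread between animals are unknown.

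Values were returned to FPKM, and differences were taken as log2(FPKM + 1) of BDE-47 minus vehicle. The plan had limma for values per library; the table holds none, so no test was run, and 2-fold is a rule of size. For every distinct name field the locus with the highest mean was kept (16915 names), and names whose mean reached 1 FPKM were compared (11567, of which 517 merge several genes). Genes named are all members, all complement-list genes past that mean, up to 3 top genes of each marker list, the 3 names nearest to C1q and genes sharing bounds with a member. C6, C9, Mbl2, Alb, Apoa2, Ttr, Sycp3, Ddx4, Tek, Lipe, Marco, Col1a2, Irf8, Nelfe, C1rl and the symbols not matched are named outside the rule. Some loci of the lists are not reported here by name; 1 was left out of its list, and the others are in the counts only. Members and lists were chosen with earlier results of these data known. Promoters came from a RefSeq table (GRCr8) with a window for 6 of the 9 members, cut at the annotated gene start; motifs were chosen after the sequences were seen, and C4a and C4b were aligned with Biopython 1.88. Functions were tested on simulated data. Python 3.11.15, pandas 2.3.3, NumPy 2.4.6 and matplotlib 3.10.9 were used.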

Additional observations from a re-analysis of the deposited data

How the results depend on the processing

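The 7 member loci compared were at least 2-fold higher as reported and under each alternative, as were 8 of 8 without a filter on low values, which adds C3. The members were chosen with these values known, so the counts are a description. Over all names the share at least 2-fold higher ran from 13.4% (quantile normalization) to 35.6% (deposited log2 ratio), and was 21.3% without a filter. With merged loci left out, C4 stands on the locus named C4a alone, at 0.599 FPKM with vehicle. That locus passed the minimum through the BDE-47 column. C3 has no value under quantile normalization or a mean of at least 5 FPKM. For C3 the difference was 0.90 after median-of-ratios scaling and 0.99 with the 10 most abundant loci and mitochondrial loci left out. These scalings lower the BDE-47 column against the vehicle column, and the pseudocount of 1 FPKM keeps the C3 difference small. With a pseudocount of 0.1 or 0.01 FPKM, and without these scalings, it was 3.08 or 4.29. The terminal pathway median was under 2-fold as reported (0.51) and in every alternative that has a value, with -0.33 after quantile normalization. Among the other lists, the median of membrane regulators was under 2-fold after median-of-ratios scaling, at 0.88. After quantile normalization such medians were 0.96 for the lectin pathway, 0.86 for membrane regulators, 0.87 for receptors and 0.86 for C1q-domain relatives. Without a filter, which adds loci near 0, they were 0.53 for the lectin pathway, 0.73 for secreted regulators and 0.46 for C1q-domain relatives. Receptors at least 2-fold higher numbered 2 of 6 after quantile normalization. With a mean of at least 5 FPKM, which leaves fewer loci, they numbered 1 of 2, lectin genes 1 of 1 and C1q-domain relatives 3 of 4. No replicate could be left out, since the table holds group values only. No paired analysis was possible because the columns carry no replicate numbers. Without counts, the depth behind low values such as those of C3 is unknown.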
